A study of Mus musculus with 73 samples.

Results

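Solute carriers are membrane proteins that move amino acids, sugars, ions, metals, vitamins and nucleotides across the membranes of the cell and its organelles. The transcripts described here are 106 solute carrier genes measured in 73 single inner hair cells of the mouse cochlea in which Casz1, a zinc-finger transcription factor gene, was deleted. They were chosen by symbol (Slc, a number, a, a number, or the same with Slco) and by a mean of at least 10 CPM, the count scaled to a fixed library total. Of the 55291 gene rows, 344 have such a symbol, and 8619 genes of any kind reached that mean. Slc26a5, Slc17a8, Slc7a14, Slc6a8, Slc25a11, Slc25a12 and Slc25a13 were kept out of the group, so 106 is not a count of every solute carrier above the threshold. Because the mean level chose the genes, their levels are given as a description.

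The cells came from postnatal day 14 mice that carried Atoh1Cre/+ and Casz1flox/flox, a Cre-activated 3xGFP reporter (Ai47), a Flp-activated tdTomato reporter and Fgf8-Flpo/+. Atoh1 drives Cre in developing hair cells, and Fgf8 marks inner hair cells within the cochlea, so cells with both GFP and tdTomato were picked by hand as Casz1 -/- inner hair cells. All 73 cells belong to 1 group, no animal is named, and wild-type inner hair cells were not analysed here. The cells therefore count as 1 sample, no test was possible, and nothing below says what the deletion changed. Shares of cells carry the exact 95% interval of Clopper and Pearson, which covers counting error alone, except that for a gene with no read the limit is set by 3 cells of the 73.

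Library totals ran from 11027945 to 37183702 counts, with a median of 17333640. Detection in a cell means 10 CPM or more, or between 110 and 372 counts depending on the library. Reads of Casz1 itself ran from 0 through a median of 42.1 to 283 CPM, with 2 cells at 0, and counts per gene do not show whether they come from the deleted exons. The 8 general hair cell markers and the 8 inner hair cell markers were read in these cells, with a median of 7 and 8 detected per cell. Otof is in both sets. Of 8 outer hair cell markers, Slc26a5 among them, a median of 3 were detected per cell and 1 was at 0 in all cells, and their sum ran from 8.53 through a median of 2341 to 18603 CPM. Slc26a5, the gene of prestin, which drives the length changes of outer hair cells, spread from 0 to 1229 CPM with a median of 73.1 CPM, and it serves below as the axis along which cells are ordered. Of 55 markers of other cell types (glia, neurons, supporting cells, stria, mesenchyme, endothelium, blood and immune cells), 3 were at 0 in all cells. Summed, they ranged from 134 to 8363 CPM around a median of 537 CPM, and their rank correlation with Slc26a5 was 0.32. The neuron markers among them had a median sum of 366 CPM (38.1 to 982 CPM). The immune markers had a median sum of 0.106 CPM and reached 7747 CPM. In 22 cells at least 1 marker that fewer than 10 cells held reached 50 CPM, and the correlations of single genes with Slc26a5 are also given without these 22 cells. The part of such RNA in the results was not tested.

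Inner hair cells convert sound into transmitter release along a steep electrical gradient, which calls for a constant supply of ATP and for tight handling of calcium, protons, chloride and potassium. The SLC25 family serves the inner mitochondrial membrane, where it exchanges ADP for ATP and imports phosphate. Other families sit in the plasma membrane (amino acid, sugar, bicarbonate and cation-chloride carriers) or in endosomes, lysosomes, the Golgi apparatus and secretory vesicles.

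The 250 bases before the annotated start are shown for 5 of the genes, to set the sequence beside transcripts that behaved differently across the cells. Slc25a5 was read in every cell, and Slc9a9 was among the most abundant carriers of the plasma and endosomal membranes. Slc22a17 and Slc10a7 lay at the upper and lower end of the relation with Slc26a5, and Slc2a8 was detected in 22 cells. Sequences are from RefSeq on GRCm38.p6, 5′ to 3′ toward the gene, and none of the 250 bases lies in an annotated GENCODE exon. Capitals mark matches on either strand to the GC box GGGCGG, the CCAAT box CCAAT, the TATA box TATAAA or the NRF1 motif (GCGCA, any base, then GCGC).
Slc25a5, chrX:36795347-36795596, plus strand: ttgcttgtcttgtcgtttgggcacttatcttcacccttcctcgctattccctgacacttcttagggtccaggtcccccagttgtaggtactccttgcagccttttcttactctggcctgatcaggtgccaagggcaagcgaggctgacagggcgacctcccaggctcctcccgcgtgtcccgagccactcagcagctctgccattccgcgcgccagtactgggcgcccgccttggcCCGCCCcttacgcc
Slc9a9, chr9:94669642-94669891, plus strand: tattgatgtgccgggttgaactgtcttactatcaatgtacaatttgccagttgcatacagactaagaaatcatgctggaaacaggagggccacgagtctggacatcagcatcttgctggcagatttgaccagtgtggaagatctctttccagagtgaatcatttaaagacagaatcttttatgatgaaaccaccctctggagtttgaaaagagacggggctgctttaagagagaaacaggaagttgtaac
Slc22a17, chr14:54913133-54913382, minus strand: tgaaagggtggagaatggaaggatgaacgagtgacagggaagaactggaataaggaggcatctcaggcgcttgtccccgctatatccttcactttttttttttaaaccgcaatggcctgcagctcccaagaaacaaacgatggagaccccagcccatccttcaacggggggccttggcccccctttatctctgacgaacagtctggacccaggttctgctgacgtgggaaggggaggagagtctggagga
Slc10a7, chr8:78509078-78509327, plus strand: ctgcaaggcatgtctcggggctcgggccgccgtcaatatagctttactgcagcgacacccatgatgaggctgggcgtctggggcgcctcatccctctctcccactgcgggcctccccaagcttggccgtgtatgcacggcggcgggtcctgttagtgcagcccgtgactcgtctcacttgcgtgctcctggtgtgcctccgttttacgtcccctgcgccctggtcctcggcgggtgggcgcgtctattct
Slc2a8, chr2:32982084-32982333, minus strand: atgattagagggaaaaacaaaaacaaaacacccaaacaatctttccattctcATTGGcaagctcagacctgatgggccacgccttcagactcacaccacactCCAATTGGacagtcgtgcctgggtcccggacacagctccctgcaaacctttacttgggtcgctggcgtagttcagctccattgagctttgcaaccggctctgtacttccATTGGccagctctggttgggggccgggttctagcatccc
The window of Slc25a5 held 1 GC box, on the opposite strand, and that of Slc2a8 held 4 matches to CCAAT counted over both strands, a pair of which overlap. No letters of the 4 motifs were found in the windows of Slc9a9, Slc22a17 and Slc10a7. G and C made up 61.6% of the window of Slc25a5, 42.8% of that of Slc9a9, 53.6% of that of Slc22a17, 65.2% of that of Slc10a7 and 52.8% of that of Slc2a8. Over the 80 solute carrier genes that matched the promoter table by symbol, the GC box was present in 53 (66.2%), against 61.98% of 6812 genes averaging 10 CPM or more and 32.9% of all 27025 promoters. CCAAT was present in 32 (40%), against 36.2% and 34.5% of the same larger sets. TATAAA stood in 4 (5.0%), against 5.48% and 13.0%, and the NRF1 motif in 5 (6.25%), against 10.2% and 3.86%. A match is only a run of letters in these windows.

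Transcripts of 5 solute carrier genes were detected in all 73 cells: the ADP/ATP carriers Slc25a4 and Slc25a5, the phosphate carrier Slc25a3, and the glutamine carriers Slc38a1 and Slc38a2. These are 4.72% of the 106 genes, against 7.25% of the 8619 genes that averaged 10 CPM or more. At the other end, 0 of the 106 were detected in fewer than 10 cells, against 0.476% of those genes. The remainder reached 10 CPM in some cells and not in others. A level below 10 CPM is not absence: Slc24a3, Slc1a5 and Slc9a9 had reads in all 73 cells. Detection in at least 37 cells was reached by 42 of the 106 (39.6%), against 56.9% of all genes at that mean. Of the 7738 pairs of a solute carrier gene and a cell, 49.3% reached 10 CPM, 16.4% had reads below it and 34.2% had no read, against 58.5%, 14.6% and 26.9% over all such genes. These shares were not adjusted for the mean level of the genes.

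**Figure D1:**
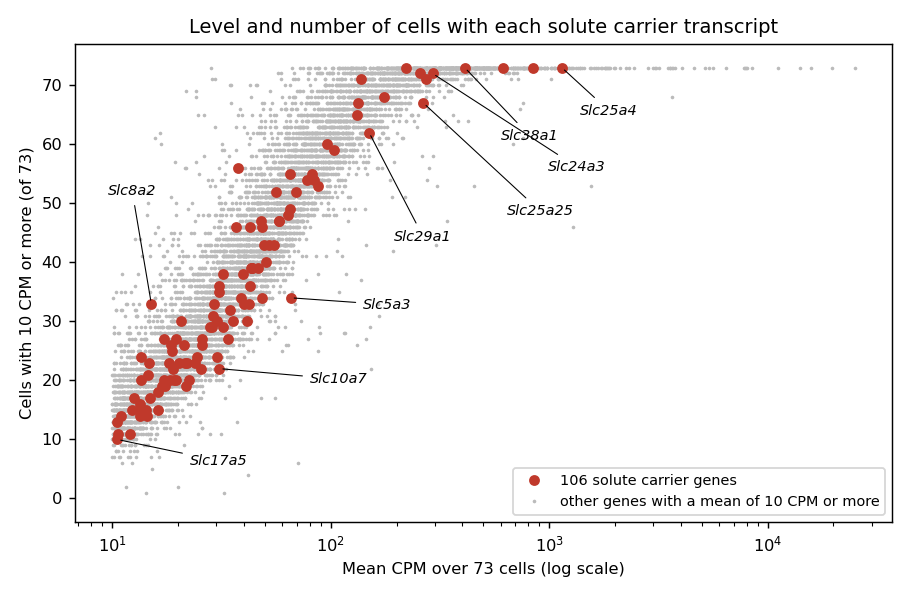
Each point is a gene averaging 10 CPM or more, with its mean CPM over 73 cells on a log axis and the number of cells at 10 CPM or more on the vertical axis. Red points are the 106 solute carrier genes, of which 5 lie at 73 cells, and grey points are the other genes.

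A cell detected a median of 53 of the 106 genes, with a range of 39 to 66. This number had a rank correlation of 0.53 over cells with the number of all genes that had any read, and of -0.31 with Slc26a5. The summed solute carrier level is given as a description, since a sum over many genes varies less than its parts by arithmetic. It had a median of 8205 CPM and a range of 6054 to 9966 CPM, which is 0.820% of counts in the median cell (0.605% to 0.997%), with a coefficient of variation of 10.3%. Its rank correlation with Slc26a5 was 0.07. Slc25a4, Slc25a5 and Slc25a3 together made up 31.96% of that sum in the median cell.

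Among the 106 genes, mitochondrial carriers held the 3 highest levels per kilobase of transcript, the scale used here to compare genes. Of 47 rows of the SLC25 family 27 are in the group. Slc25a5, on the plus strand of the X chromosome (mm10, 36795651 to 36798807), averaged 510 CPM per kilobase, and Slc25a4, on the minus strand of chromosome 8 (46206797 to 46211284), averaged 485 CPM per kilobase. Slc25a3, on the minus strand of chromosome 10 (91116574 to 91124059), averaged 110 CPM per kilobase. The next gene of the group, Slc24a3, averaged 64.1. Per cell, Slc25a4 had a lowest level of 246 CPM, a median of 1148 CPM and a highest level of 1948 CPM. For Slc25a5 the same values were 156, 795 and 1605 CPM. For Slc25a3 they were 227, 598 and 1060 CPM. None of the 73 cells came near 0 for any of them. Slc25a4, the isoform of heart, muscle and brain, was the higher of the pair per kilobase in 37 cells. Slc25a5, the isoform of many growing tissues, was the higher in the other 36. This near tie depends on the length used. By the longest transcript, Slc25a5 averaged 677 and Slc25a4 593 CPM per kilobase, and cells were not counted on that length. The levels of this pair were nearly unrelated over cells, with a rank correlation of 0.14. The pseudogene row Slc25a5-ps averaged 0.0809 CPM.

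Below these, Slc25a39, needed for glutathione import into mitochondria, averaged 63.6 CPM per kilobase and spread from 0 to 457 CPM with a median of 165 CPM. Slc25a33, a pyrimidine nucleotide carrier, averaged 34.5 CPM per kilobase and was detected in 55 cells (75.3%, interval 63.9 to 84.7). Slc25a25, a calcium-regulated ATP-Mg/phosphate carrier, had a mean of 33.8 CPM per kilobase. It ran from 0.123 CPM through a median of 252 CPM to 1224 CPM and was detected in 67 cells. Iron enters mitochondria through the mitoferrins, and Slc25a37 (mitoferrin 1) was higher per kilobase than Slc25a28 (mitoferrin 2) in 63 of 73 cells. Their means were 22.8 and 8.57 CPM per kilobase, and their rank correlation over cells was 0.27. The lowest SLC25 member per kilobase was Slc25a40 at 1.94, with 18 cells. By the longest transcript, Slc25a40 had 3.64 and Slc25a22 was the lowest at 3.10. The sum over the 27 carriers had a median of 3995 CPM (2305 to 5283 CPM) and a coefficient of variation of 15.98%.

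**Figure D2:**
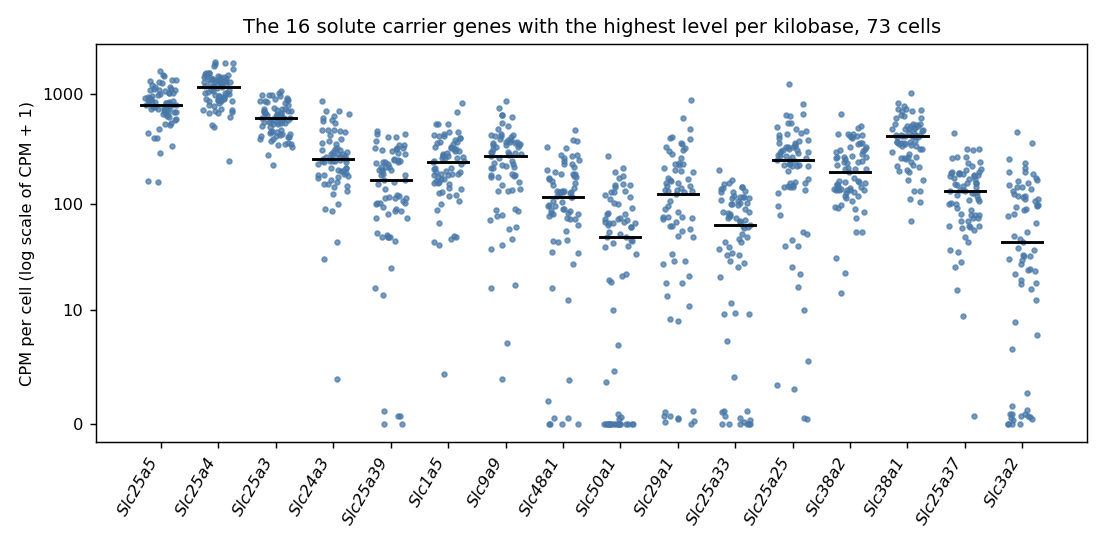
Level per cell, in CPM on a log scale of CPM + 1, of the 16 solute carrier genes with the highest mean CPM per kilobase, ordered by that mean from left to right. Each point is 1 of 73 cells and each bar is the median. Slc25a5, Slc25a4, Slc25a3, Slc38a2 and Slc38a1 have no cell below 10 CPM.

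Amino acid carriers gave 14 genes of the group, among 62 rows of these families, and its only genes outside mitochondria that were detected in all cells. Slc1a5, an exchanger of neutral amino acids including glutamine on chromosome 7 (16781340 to 16798274, plus strand), averaged 61.5 CPM per kilobase. It ran from 1.85 through a median of 241 to 831 CPM and was detected in 72 cells. Among the 7 rows of its family it held 92.3% of the summed level per kilobase and was the highest in 71 cells. Of the glutamate carriers of neurons and glia in that family, Slc1a1 and Slc1a2 averaged 0.000382 and 0.000561 CPM per kilobase and were detected in 0 cells. Slc1a3 averaged 0.376 CPM per kilobase with 5 cells and a maximum of 71.97 CPM, and Slc1a6, the second of the family, averaged 2.87 with 9 cells and a maximum of 115 CPM. Slc38a1 and Slc38a2, sodium-coupled glutamine carriers from the minus strand of chromosome 15 (96571418 to 96642913 and 96687392 to 96699730), averaged 23.8 and 25.1 CPM per kilobase. Slc38a1 ran from 69.5 through a median of 411 to 1020 CPM, and Slc38a2 from 14.5 through 193 to 656 CPM. Slc38a1 was the higher per kilobase in 36 cells, and the rank correlation of the pair was 0.12. Their order depends on the length used. By the longest transcript, Slc38a1 averaged 56.5 and Slc38a2 36.2 CPM per kilobase. Slc3a2, the heavy chain that brings SLC7 light chains to the membrane, averaged 22 CPM per kilobase, with a median of 44.3 CPM and a highest level of 448 CPM. Of its light chains, Slc7a6 averaged 8.09 CPM per kilobase and was detected in 46 cells, whereas Slc7a5 averaged 0.149 and was detected in 1. Heavy chain and Slc7a6 were both detected in 32 cells.

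Of the calcium exchangers, Slc24a3 led. This sodium, calcium and potassium exchanger, on chromosome 2 from 145167754 to 145642166, averaged 64.1 CPM per kilobase and was the fourth gene of the group on that scale. Its levels ran from 1.55 through a median of 256 to 865 CPM, with 72 cells at 10 CPM or more (98.6%, interval 92.6 to 100.0). It held 97.7% of the summed level per kilobase of its 5 family rows and was the highest of them in each of the 73 cells. The sodium-calcium exchangers Slc8a1 and Slc8a2 averaged 3.48 and 2.87 CPM per kilobase and were detected in 49 and 33 cells. Slc8a1 was higher than Slc24a3 per kilobase in 1 cell.

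Among proton exchangers, Slc9a9, an endosomal exchanger on chromosome 9 (94669909 to 95230445, plus strand), averaged 47.98 CPM per kilobase and ran from 1.56 through a median of 272 to 858 CPM in 71 cells with detection. It held 75.2% of its family's summed level per kilobase and led in 63 cells. Slc9a2 and Slc9a8 averaged 4.42 and 3.80 CPM per kilobase. The cation-chloride carriers were mixed rather than led by a single gene. Slc12a2 (NKCC1), which brings chloride in with sodium and potassium, averaged 7.50 CPM per kilobase and was detected in 55 cells, at up to 355 CPM and a median of 55.8 CPM. The potassium-chloride exporters Slc12a7 and Slc12a5 averaged 6.63 and 6.41 CPM per kilobase and were detected in 54 and 47 cells. Slc12a2 was the highest of the family per kilobase in only 19 cells and higher than Slc12a7 in 33. Phosphate, bicarbonate and other anion carriers gave 8 genes of low level: the phosphate carrier Slc20a1 led with 7.10 CPM per kilobase, followed by Slc34a3 with 6.85 and Slc26a11 with 6.61.

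The sugar and monocarboxylate carriers of the group reached fewer cells than its mitochondrial leaders. Slc50a1, a sugar carrier of the Golgi apparatus and plasma membrane, averaged 39.7 CPM per kilobase, was detected in 47 cells and had a median of 48.7 CPM. Slc37a3, of the sugar-phosphate family, averaged 12.9 and was detected in 52 cells. The glucose carrier Slc2a1 averaged 10.2 CPM per kilobase, with a median of 0.401 CPM, a highest level of 244 CPM and detection in 30 cells (41.1%, interval 29.7 to 53.2). Slc2a3, the neuronal glucose carrier, averaged 0.000253 CPM per kilobase, and Slc2a4 had no read in any cell (0 of 73, which at the limit of 3 cells allows a share of up to 4.11% of cells with a read). Slc16a7, a monocarboxylate carrier of high affinity, was the sole gene of its family in the group. It averaged 1.85 CPM per kilobase and was detected in 23 cells, and Slc16a1, outside the group, averaged 1.00.

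Metal carriers were spread over many genes of low level. Of the 9 zinc carriers, Slc39a6 had 12.2, Slc30a9 10.8 and Slc30a6 10.5 CPM per kilobase, and Slc30a9 was detected in 67 cells with a median of 120 CPM. Slc30a5 and Slc30a6, whose proteins pair in the early secretory pathway, were both detected in 12 cells and had a rank correlation of -0.16 over cells. The copper importer Slc31a1 averaged 9.63 CPM per kilobase in 30 cells with detection, and the iron importer Slc11a2 averaged 2.31 in 23. Slc40a1, the iron exporter ferroportin, had no read either, with the same limit of 3 cells. Slc48a1, a heme carrier of endosomes and lysosomes, averaged 47.8 CPM per kilobase and was detected in 65 cells, with a median of 114 CPM.

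The rest of the group covers nucleosides, vitamins, vesicles, lipids and organic ions. Slc29a1, the equilibrative nucleoside carrier that also takes up adenosine, lies on the minus strand of chromosome 17 (45585200 to 45599606). It averaged 37.4 CPM per kilobase and held 91.9% of its family's summed level. It ran from 0 through a median of 122 to 872 CPM, and Slc29a3, its lysosomal relative, averaged 2.12. The vesicular monoamine carriers Slc18a1 and Slc18a2 averaged 7.92 and 3.74 CPM per kilobase and were detected in 46 and 27 cells, with both in 21 cells and neither in 21. Slc17a5, the lysosomal carrier of sialic acid, averaged 2.91. The vitamin C carrier Slc23a2 averaged 8.05 CPM per kilobase in 48 cells, the lysosomal heme carrier Slc46a3 averaged 9.12 in 20, and the peptide carrier Slc15a4 averaged 3.25 in 20. Slc35a1, which supplies CMP-sialic acid to the Golgi apparatus, averaged 18.6, its relative Slc35a4 11.8, and the acetyl-CoA carrier Slc33a1 4.22. Slc22a23, of the organic ion family, averaged 15.03 in 60 cells. Of the choline and fatty acid carriers, Slc44a2 averaged 4.63 and Slc27a1 3.21 CPM per kilobase. At the threshold of the group, Slc17a5, Slc19a2 and Slc22a5 lay just inside with means of 10.5, 10.6 and 10.7 CPM, and Slc26a6, Slc39a8 and Slc25a32 just outside with 9.51, 8.85 and 8.35 CPM.

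A list of 15 carriers linked to hearing loss in people or mice held 6 genes at a mean of 10 CPM or more, all in the group, among them Slc12a2, Slc12a7, Slc4a7, Slc19a2 and Slc33a1. Of these 6, 4 were detected in at least 37 cells, against 56.9% of all genes at that mean. Of all 55291 gene rows, 8619 reached the mean. The lists used here are short, and no difference from other genes is drawn from their counts. Slc4a7, a sodium-bicarbonate cotransporter whose loss deafens mice, was detected in 43 cells, at up to 394 CPM and a median of 24.2 CPM. The thiamine carrier Slc19a2 was detected in 13 cells with a maximum of 119 CPM. Slc26a4 (pendrin), an anion exchanger of the inner ear's fluid-facing epithelia, was detected in 8 cells with a mean of 6.79 CPM, and Slc22a4 had no read in any cell. Of 14 genes for partner proteins and pumps, 10 reached the mean. Bsg (basigin), the chaperone of monocarboxylate carriers, was in all 73 cells with a median of 746 CPM (157 to 1586 CPM). The sodium pump subunit Atp1b1 had a median of 410 CPM. Of 25 carriers with other symbols, 18 reached the mean, among them the pyruvate carrier subunit Mpc2 with a median of 166 CPM and the uncoupling protein Ucp2 with 83.7 CPM.

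Cell-to-cell variability was set against the level of each gene, as the amount by which its squared coefficient of variation, in log10, exceeds the trend of all genes. Among the 5% most variable genes were 6 of the 106 (5.66%), against 5% by construction for all genes: Slc5a3, Slc29a1, Slc49a4, Slc2a8, Slc25a25 and Slc10a7. Slc5a3, the carrier of the osmolyte myo-inositol on chromosome 16 from 92058322 to 92087473, had the largest excess of the group at 0.419. It had no read in 22 cells, a median of 3.72 CPM and a peak of 680 CPM, and 1 cell held 14.2% of its summed CPM. Slc2a8, an intracellular sugar carrier on chromosome 2, had no read in 36 cells, and 1 cell at 406 CPM held 21.8% of its sum. Slc49a4 had no read in 32 cells and a maximum of 415 CPM. Slc29a1 and Slc25a25 were variable in another way, being detected in 62 and 67 cells. The next 4 were Slc16a7, Slc43a2, Slc22a5 and Slc4a7. At the steady end, Slc8a2 lay at the 3.18 percentile of all genes, Slc25a33 at the 8.27 percentile and Slc25a3 at the 8.33 percentile.

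**Figure D3:**
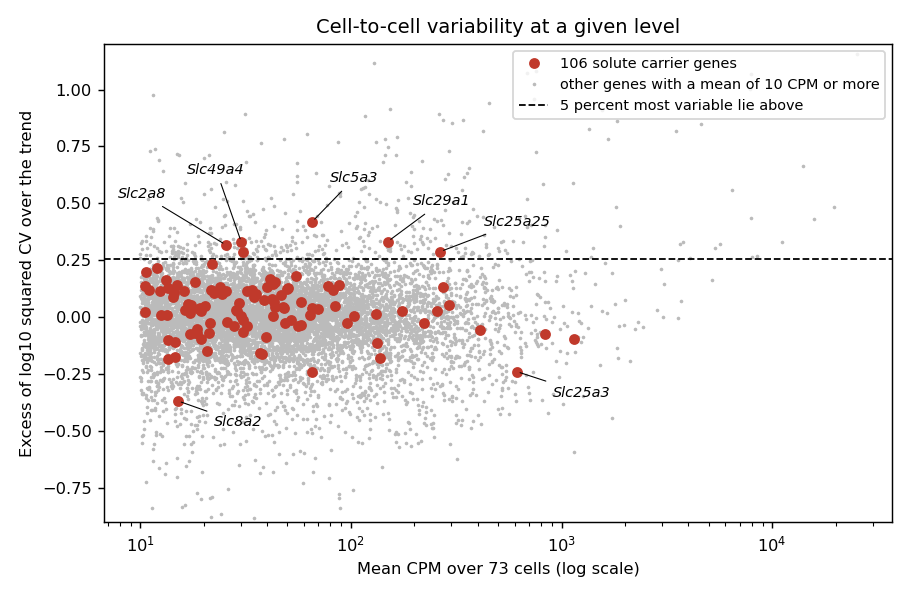
Squared coefficient of variation (CV) above the trend, in log10, against mean CPM on a log axis, for genes averaging 10 CPM or more. Red points are the 106 solute carrier genes, the dashed line bounds the 5% most variable genes, and 30 grey genes lie outside the plotted range. Slc5a3 has the largest excess (0.419) among the red points.

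Slc5a3 and Slc25a25 had a rank correlation of 0.37 over cells (0.30 corrected for the mitochondrial share), Slc25a25 with Slc10a7 had 0.25 (0.14 after correction), and Slc5a3 with Slc10a7 had 0.15 (0.0059 after correction). The mitochondrial share is the percentage of counts on mitochondrial genes, with a median of 6.06% and a range of 1.81 to 13.0%. It had rank correlations of 0.34 with Slc5a3, 0.30 with Slc25a25 and 0.43 with Slc10a7, and its part in their variability was not tested. Slc5a3 shares 159 bases of exon with Mrps6 on the same strand, which averaged 328 CPM, and reads there may be assigned to either gene. The rank correlation of the pair was 0.12.

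Along the axis of Slc26a5, none of the 106 genes reached a correlation of 0.5 in size. Of the 106 genes, 0 had a rank correlation of 0.5 or more with Slc26a5, against 1.35% of 8618 genes, and 0 had -0.5 or less, against 0.87%. Their median was -0.047, against -0.030 over all genes, and the range was -0.49 to 0.42. At 0.3 in size, a threshold chosen after the values were seen, 5 genes (4.72%) lay at or above 0.3, against 6.17% of all genes, and 7 (6.60%) at or below -0.3, against 6.8%. These shares lie near the background. The depth, the library and the mitochondrial share are common to both axes of each such correlation, and no p is attached to them. Hair cell markers moved along the same axis: the summed 7 outer hair cell markers other than Slc26a5 had a rank correlation of 0.73 with it, the inner hair cell markers -0.56 and the general hair cell markers -0.48. Otof counts in both the inner and the general sum, so their values are not separate. Of the markers of other cell types, the summed 8 glia markers, at 0 to 498 CPM, had a rank correlation of 0.53 with Slc26a5. None of the 8 was at 0 in all cells. The other classes had 0.23 (stria), 0.08 (supporting cells), 0.07 (mesenchyme), 0.04 (neurons), 0.03 (immune cells), -0.14 (blood) and -0.34 (endothelium). With the sum of all 55 markers the 106 genes had rank correlations from -0.31 to 0.29, and the part of these and of the hair cell markers was not tested.

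The highest value was that of Slc22a17, at 0.42. It encodes a receptor for lipocalin-bound iron and lies on the minus strand of chromosome 14 (54906304 to 54913132). It ran from 0 through a median of 29.5 to 245 CPM and was detected in 43 cells. After correction for the mitochondrial share the value was 0.36, without the 22 cells holding rare markers of other cell types it was 0.32, and with Slc17a8, the inner hair cell glutamate carrier, it was -0.48. Slc26a1, a sulfate exchanger of the same family as prestin, followed at 0.38 with detection in 15 cells, but at 0.21 after correction and 0.27 without the 22 cells. Slc24a3 stood at 0.37 and at 0.36 after correction, with 0.26 without the 22 cells. Slc4a7 had 0.34 (0.21 after correction), Slc9a9 0.32 (0.18), the cationic amino acid carrier Slc7a1 0.29 (0.23), Slc12a2 0.26 (0.17) and Slc37a3 0.22 (0.18). Without the 22 cells Slc4a7 had 0.31, Slc9a9 0.32, Slc7a1 0.39, Slc12a2 0.17 and Slc37a3 0.22. The abundant Slc25a5 had 0.21, with 0.08 after correction and 0.39 without the 22 cells, and Slc25a4 had 0.02, with -0.13 after correction and 0.03 without the 22 cells. With Slc17a8 in place of Slc26a5, Slc26a1 had -0.14, Slc24a3 -0.10, Slc4a7 -0.39 and Slc9a9 -0.09. From the lower end described next, Slc10a7 had 0.15 and Slc10a1 0.24 with Slc17a8.

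At the lower end, Slc10a7, a relative of the bile acid carriers that is needed for skeletal growth, lies on the plus strand of chromosome 8 (78509346 to 78734003). It had -0.49 and -0.35 after correction. It was detected in 22 cells (30.1%, interval 19.9 to 42), and its highest level was 389 CPM. Slc10a1, the bile acid carrier of liver, had -0.43 (-0.26 after correction) with detection in 23 cells and a maximum of 143 CPM. Slc47a2, of the organic cation exporters, had -0.39 (-0.27) and Slc35a4 -0.37 (-0.38). The mitochondrial carriers Slc25a23, Slc25a30 and Slc25a25 had -0.33 (-0.29 after correction), -0.32 (-0.27) and -0.31 (-0.20), and Slc39a13, a zinc carrier of the Golgi apparatus, had -0.30 (-0.24). Without the 22 cells Slc25a25 stood at -0.49, Slc25a23 at -0.35, Slc25a30 at -0.29 and Slc39a13 at -0.27. On the same cells Slc10a7 had -0.49, Slc10a1 -0.44, Slc47a2 -0.38 and Slc35a4 -0.40. The mitochondrial share itself had a rank correlation of -0.49 with Slc26a5. Slc26a1, Slc25a25, Slc35a4 and Slc39a13 share exon bases with Idua, Naif1, Apbb3 and Psmc3 on the opposite strand, and no source says that reads were counted by strand.

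**Figure D4:**
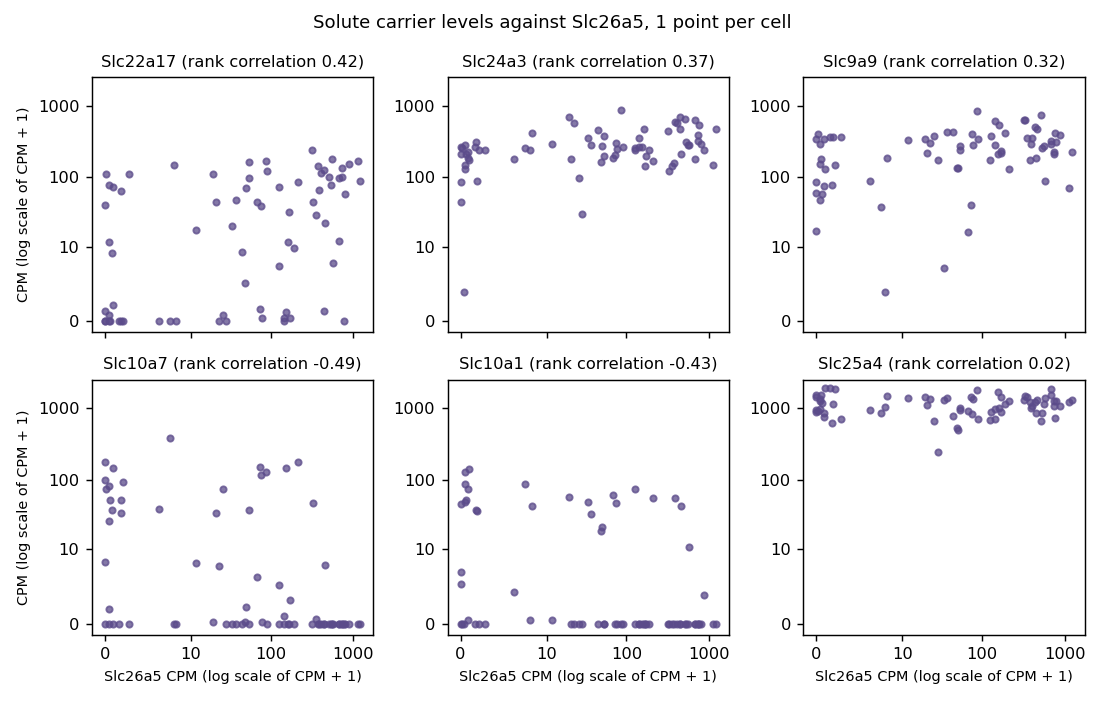
Level of 6 solute carrier genes against Slc26a5, both in CPM on a log scale of CPM + 1, 1 point for each of 73 cells. Slc10a7 and Slc10a1 have many cells at 0 at high Slc26a5, with rank correlations of -0.49 and -0.43, whereas Slc25a4 stays at 246 CPM or more in every cell.

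Of the 106 genes, 45 (42.5%) had a positive and 61 a negative rank correlation with Slc26a5, against 43.3% positive over all 8618 genes. By role, calcium exchangers lay on the positive side in 3 of 3 genes, with a median of 0.11, and zinc carriers on the negative side in 8 of 9, with a median of -0.091. Mitochondrial carriers had 10 positive and 17 negative genes and a median of -0.064, and amino acid carriers 9 positive and 5 negative with 0.093. Cation-chloride carriers had 4 positive and 1 negative, proton exchangers 3 and 1, sugar carriers 4 and 4, bicarbonate and anion carriers 2 and 6, organic ion carriers 2 and 5, and carriers of nucleotide sugars and acetyl-CoA 1 and 4. With so few genes per role, no difference between roles is drawn from these counts. Over the summed level of a role, the calcium exchangers had a rank correlation of 0.39 with Slc26a5 and the proton exchangers 0.38. Each of these sums was led per kilobase by a single gene, Slc24a3 in 72 cells and Slc9a9 in 64. The summed mitochondrial carriers had -0.06. The hearing loss list, the partner list and the list with other symbols held 0 genes past 0.5 in either direction among those averaging 10 CPM or more.

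**Figure D5:**
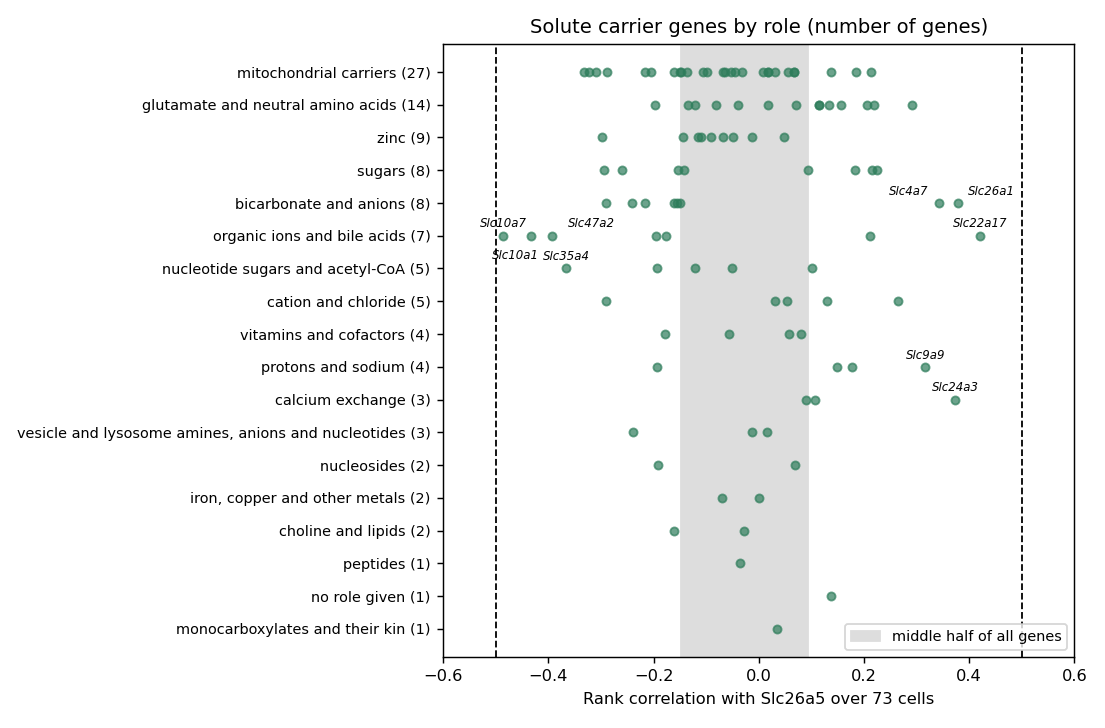
Rank correlation over 73 cells of each of the 106 solute carrier genes with Slc26a5, 1 point per gene, by role with the number of genes in parentheses. The grey band spans the middle 50% of all genes and dashed lines mark -0.5 and 0.5, and no point lies beyond either line.

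Solute carrier genes showed little joint variation, near that of pairs of all genes. Over 5565 pairs the median rank correlation was 0.001, against 0.004 over pairs of all genes at that mean level. At 0.4 or more stood 6 pairs (0.108%), against 0.135% of all pairs, and at -0.4 or less 5 pairs (0.0898%), against 0.110%. The 415 pairs within a family had a median of 0.004. The highest pair was Slc34a3 with Slc26a11 at 0.44, both detected in 11 cells. Then came Slc25a51, a mitochondrial NAD carrier, with the copper importer Slc31a1 at 0.43, and Slc25a16 with Slc10a1 at 0.42 and with Slc12a7 at 0.41. Slc23a2 with Slc6a17 and Slc25a5 with Slc7a1 each had 0.41, Slc8a2 with Slc1a5 had 0.38 and Slc2a1 with Slc4a7 had 0.37. The lowest was Slc7a1 with Slc25a42 at -0.49, with 2 cells holding both. None of these pairs joins genes of 1 family.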

How the data were processed

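Per the labels' protocols, cells were picked by hand, and Smart-Seq HT cDNA was tagmented into libraries. The tools given in the submitters' processing notes are featureCounts 2.0.1, HISAT2 2.2.1 and StringTie 2.2.1, with build mm10. Annotation release and strand setting are not given in the sources used here. Deposited values are counts, whole numbers for each gene in each cell. Without molecular identifiers in the kit, PCR copies are counted too.

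Counts were divided by the library total without the reporter row WPRE (0.0161% of counts) to give CPM. No pair of libraries was identical. Lengths are exon unions from GENCODE vM21 on the same build, found for all 106 genes, 104 of them by current symbol. Of the 106, 35 share exon bases with another gene, and 9 with a gene of at least 10 CPM. Correlations are Spearman values over 73 cells, and the correction for the mitochondrial share is a partial rank correlation. Variability used a lowess trend of span 0.3. The correlation and variability steps were run on simulated data with a preset spread between cells. That spread was not fitted to these cells, so the run says nothing on genes with many cells without a read. The design has 1 group, so no model or test was fitted.

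The genes, roles and lists were chosen with earlier results of these data known. Named are the 12 genes highest per kilobase, the 3 highest of each role, the 8 highest and 8 lowest by correlation with Slc26a5, the 10 most variable, the 3 on each side of the threshold, the 8 highest pairs and genes of the 3 lists. Carriers outside the group given for contrast were chosen after their values were seen. Some genes that the rule names are not reported here. Scripts ran in Python 3.11.15 with pandas 2.3.3, numpy 2.4.6, statsmodels 0.14.6, scipy 1.17.1 and matplotlib 3.10.9.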

Additional observations from a re-analysis of the deposited data

How the results depend on the processing

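Of 65 alternative values, 58 stayed within the limits set and 7 moved. The rule used had no label for a change of direction. Medians near 0 did change sign. The median between pairs went from 0.001 to -0.008 for genes detected in at least 37 cells. A mean of 5 or 20 CPM in place of 10 gave 134 or 74 solute carrier genes. With the longest transcript in place of the exon union as length, 8 of the 10 genes highest per kilobase stayed. Slc24a3 then averaged 72.3 CPM per kilobase, below Slc25a39 at 104, Slc1a5 at 91.4 and Slc9a9 at 78.6. With detection at 1 CPM, 8 genes were in all cells and a cell held a median of 60. With detection at 50 CPM, a cell held a median of 36, and 16 genes were in fewer than 10 cells. Without the 22 cells with markers of other cell types, 7 genes were in fewer than 10 of the 51 cells left, where fewer cells alone lower the count. At a correlation threshold of 0.3 in size, added after the values were seen, 5 and 7 genes passed in place of 0 and 0. The median correlation with Slc26a5 was 0.017 for the 42 genes in at least 37 cells, against -0.047 for all 106, both within the spread between genes. Leaving mitochondrial genes out of the totals shifted levels by a median of 0.11 on the log2 scale, and size factors by a median of 0.001. No paired analysis was possible because the numbers in the labels only name cells of 1 group. Depth sets the size of a single count, between 0.0269 CPM (deepest library) and 0.0907 CPM (shallowest).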
